A study of Rattus norvegicus with 25 samples.

Results

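Gfap, Vim, Nes and Synm encode the 4 intermediate filament proteins that astrocytes assemble into 1 mixed cytoskeleton: glial fibrillary acidic protein, vimentin, nestin and synemin. They were taken by name from the gene count table, and are 4 of the 34315 genes with counts in every library. All 4 passed the filter on low counts, which left 21064 genes for the tests.

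PolyA RNA of the hippocampus was sequenced in 25 libraries, 5 in each of 5 groups. The rats were Sprague-Dawley males aged 6 to 7 weeks. Rats of the Vehicle-sham group had no cortical impact and received vehicle. The other groups had a controlled cortical impact (CCI), in which a piston strikes the exposed cortex, and received vehicle (Vehicle-CCI) or a thymus preparation. The labels call these preparations thymus (TD-CCI), thymus cytosolic factor (TCF-CCI) and thymus nuclear factor (TNF-CCI). "TNF" here is the nuclear factor preparation and not the cytokine. The sources used here give no dose, no interval between impact and dissection and no hemisphere. Nor do the labels state that each library is a separate animal, so p-values refer to the spread between these libraries, which may be technical in part.

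Intermediate filaments are ropes of coiled-coil proteins. In mature astrocytes GFAP is the main subunit and vimentin its partner. Nestin, best known from neural stem and progenitor cells, and synemin cannot build filaments alone and enter those made by vimentin or GFAP. After injury astrocytes enlarge and thicken this network, a state called reactive astrogliosis in which GFAP is the standard marker. Vimentin is also made by microglia, macrophages, endothelium, mural cells, fibroblasts and ependyma, and nestin by endothelium and mural cells. In bulk tissue more cells of a type and more RNA per cell cannot be told apart.

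The genes lie on 4 chromosomes of the build the count table uses, mRatBN7.2, and positions are those of the table, from the first to the last exon. Gfap spans chr10:87852891-87861631 on the minus strand, with 10 merged exons and 3368 exonic bases. Vim spans chr17:76668701-76677186 on the plus strand, with 9 merged exons and 1796 exonic bases. Nes spans chr2:173437867-173447777 on the plus strand, with 5 merged exons and 6674 exonic bases. Synm spans chr1:121333712-121363652 on the minus strand, with 4 merged exons and 7434 exonic bases. None of the 4 overlaps another gene in the table. Gene counts do not tell coding from untranslated exon parts.

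The 250 bases before the start sites of Gfap and Vim are shown, from RefSeq's GRCr8 promoter table, 5′ to 3′ on the gene's strand. Capitals mark matches to any of 4 motifs, searched on both strands: the STAT palindrome TTCNNNGAA, the AP-1 motif TGANTCA, the CCAAT box CCAAT and the TATA box TATAAA. The windows are chr10:88361662-88361911 (minus strand) for Gfap and chr17:81577011-81577260 (plus strand) for Vim.
Gfap: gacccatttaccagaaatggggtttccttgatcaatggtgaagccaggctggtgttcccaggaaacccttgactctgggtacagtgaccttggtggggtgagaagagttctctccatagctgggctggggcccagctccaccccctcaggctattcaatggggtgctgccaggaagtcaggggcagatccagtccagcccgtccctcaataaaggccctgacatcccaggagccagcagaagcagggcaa
Vim: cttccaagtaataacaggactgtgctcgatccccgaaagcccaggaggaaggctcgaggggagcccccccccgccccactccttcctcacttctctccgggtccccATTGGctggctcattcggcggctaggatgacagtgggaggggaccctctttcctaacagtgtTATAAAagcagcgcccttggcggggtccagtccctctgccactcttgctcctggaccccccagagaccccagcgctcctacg

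The Vim window held TATAAA beginning 82 bases before the start and CCAAT, on the opposite strand, 144 bases before it. The Gfap window held none of the 4 motifs in these letters. Sequence beyond these 250 bases was not searched, so sites elsewhere would not be seen. For Nes and Synm the table places the start 873 and 430 bases inside the RefSeq gene, so no sequence is printed. Their 250-base windows held no match (Nes) and 1 CCAAT, 246 bases before the start (Synm). Of 33469 rat promoter windows of that length, 7.67% held the STAT palindrome, 6.34% the AP-1 motif, 34.0% a CCAAT box and 12.9% TATAAA. The overlap of these motifs with one another was not counted, and a match is a string of letters, not a bound site.

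Libraries held 27.3 to 44.9 M counts (M, 1000000). Levels are given as CPM, counts in each 1000000 counts of a library, after TMM scaling, a correction for library composition. Vehicle-sham 2 and 3 stood apart: 25.6% and 17.3% of their counts were mitochondrial rRNA, against 2.95% to 10.9% in the 20 CCI libraries and 2.18% to 6.58% in the other sham libraries. The differences of the 4 genes from sham, their ratios and the gene lists for the CCI mean are therefore also given without Vehicle-sham 2. The defining markers of hippocampal tissue were present: none of the 14 astrocyte identity, 8 neuronal or 7 hippocampal field markers was at 0 in any library.

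Per kilobase of exon, the 4 genes kept 1 order in each of the 25 libraries: Gfap, then Vim, then Synm, then Nes. Mean levels in Vehicle-sham were 313 ± 116 CPM per kb (SD, n = 5) for Gfap, 22.3 ± 7.27 for Vim, 7.73 ± 3.30 for Synm and 0.915 ± 0.365 for Nes. In TNF-CCI, the group with the highest means of Gfap, Vim and Synm, they were 1250 ± 761, 136 ± 73.8, 10.6 ± 2.14 and 2.08 ± 0.733 CPM per kb. Gfap alone took 0.0478% to 0.173% of all counts in sham libraries and up to 0.85% in TNF-CCI 1.

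Gfap, Vim and Nes were higher after impact, and Synm was not shown to change. Over the mean of the 4 CCI groups, edgeR's quasi-likelihood test called Vim (4.48-fold), Gfap (2.51-fold) and Nes (2.09-fold) higher than in Vehicle-sham, at adjusted p-values between 0.0228 and 0.0337. Synm stood at 1.21-fold (adjusted p = 0.462). So 3 of the 4 filament genes passed, where 5.92% of all genes tested did (1248, of which 472 were higher and 776 lower). For none of the 4 genes did all 20 CCI libraries lie above every sham library, a pattern that 0.0427% of genes showed. The 3 calls depended on the model: with the mitochondrial rRNA percent as a covariate 168 genes passed and none of these 3. The edgeR adjusted p-values were then 0.102 for Gfap, 0.0527 for Vim and 0.0973 for Nes. Without both Vehicle-sham 2 and 3, 0 genes of all tested passed.

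**Figure D1:**
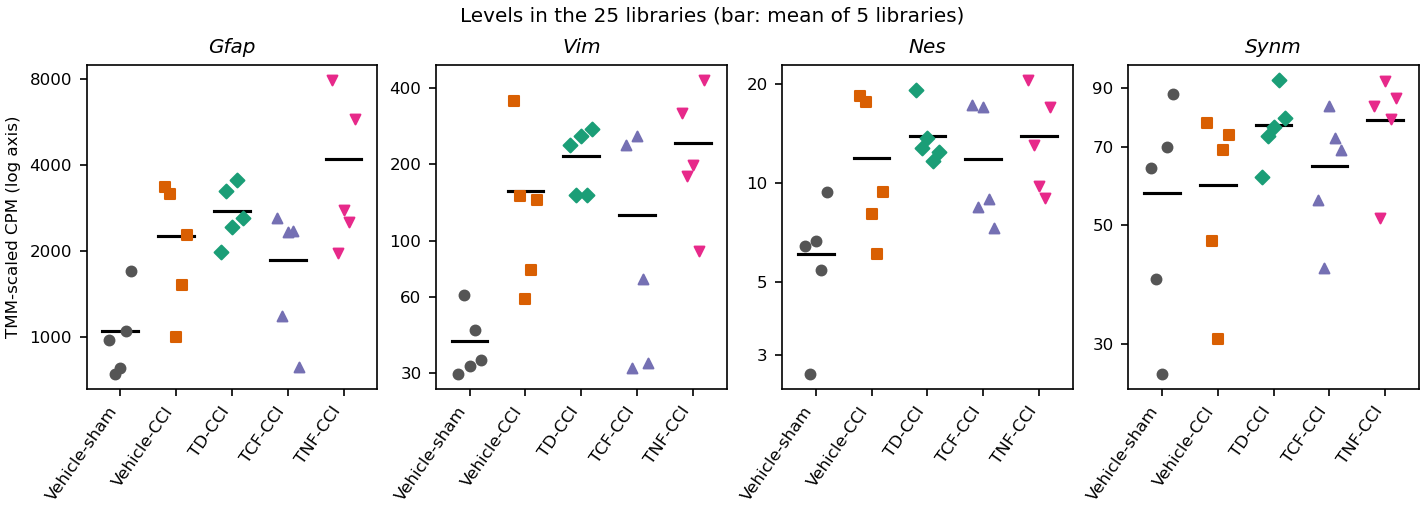
Levels of Gfap, Vim, Nes and Synm in each library as TMM-scaled CPM on a log axis, by group, with 1 point a library and a bar at the mean of 5 libraries. Of the 20 CCI libraries, 16 lay above every sham library for Gfap, 17 for Vim, 13 for Nes and 2 for Synm.

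Gfap, the filament protein by which astrocytes are stained, was read at 978, 743, 780, 1057 and 1714 CPM in Vehicle-sham libraries 1 to 5. In Vehicle-CCI it was at 3343, 3166, 1003, 1531 and 2276 CPM, so that 3 libraries exceeded every sham library and 2 lay inside the sham range. The TD-CCI libraries held 1992, 3262, 2425, 3550 and 2616 CPM, all above sham. TCF-CCI gave 2621, 1191, 2333, 2360 and 788 CPM, with TCF-CCI 2 and 5 back among the sham values. TNF-CCI gave 7938, 1970, 2780, 2532 and 5789 CPM: all 5 exceeded sham, and libraries 1 and 5 were the highest of the 25.

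In log2 units of the edgeR fit, Gfap was 1.33 ± 0.34 (SE) higher after impact, as a mean over the CCI groups (95% interval 0.64 to 2.02, adjusted p = 0.0289). By group it rose in TNF-CCI, by 1.99 ± 0.40 (adjusted p = 0.0198), in 5 of 5 libraries. Adjusted p-values of the other groups missed the threshold: TD-CCI at 1.39 ± 0.39 (adjusted p = 0.154), Vehicle-CCI at 1.10 ± 0.39 (adjusted p = 0.244) and TCF-CCI at 0.82 ± 0.39 (adjusted p = 0.268). Without Vehicle-sham 2, which has the lowest Gfap of all libraries, the mean difference was 1.25 and no longer passed (adjusted p = 0.109). That call was also lost without Vehicle-sham 3 (adjusted p = 0.0598) and, at an adjusted p just over 0.05, without Vehicle-sham 4. The TNF-CCI difference still passed without Vehicle-sham 2 (1.91, adjusted p = 0.0295), and those of TD-CCI (1.32), Vehicle-CCI (1.03) and TCF-CCI (0.75) did not pass. Without both Vehicle-sham 2 and 3, the TNF-CCI difference of Gfap was 1.76 and no longer passed (edgeR adjusted p = 0.102).

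Vim, vimentin, had the widest range of the 4 genes, its highest library holding 14.6 times the CPM of its lowest. Vehicle-sham libraries held 29.6, 61.2, 31.9, 44.2 and 33.7 CPM, the highest being library 2, one of those rich in mitochondrial rRNA. Vehicle-CCI libraries held 355, 150, 58.7, 76.5 and 145 CPM, all but the third above every sham library. TD-CCI was even, at 239, 151, 259, 152 and 275 CPM. TCF-CCI split: libraries 1 and 3 had 239 and 260 CPM, library 4 had 70.2 CPM, and libraries 2 and 5 had 31.3 and 32.9 CPM, within the sham range. TNF-CCI held 319, 180, 199, 90.6 and 431 CPM, all above sham, with the highest value of the series in library 5.

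Vim was 2.16 ± 0.48 (SE) higher on the log2 scale as a mean over the CCI groups (95% interval 1.17 to 3.16, adjusted p = 0.0228). TNF-CCI passed at 2.60 ± 0.55 (adjusted p = 0.0219), in 5 of 5 libraries. TD-CCI stood at 2.42 ± 0.55 (adjusted p = 0.134), Vehicle-CCI at 1.97 ± 0.54 (adjusted p = 0.157) and TCF-CCI at 1.66 ± 0.54 (adjusted p = 0.165). Without Vehicle-sham 2 the mean difference was larger, 2.39, with an adjusted p of 0.06; 14 genes of all tested passed in that fit. The TNF-CCI difference without that library was 2.83 (adjusted p = 0.0281), and those of TD-CCI (2.65), Vehicle-CCI (2.20) and TCF-CCI (1.89) did not pass. Without both Vehicle-sham 2 and 3, the TNF-CCI difference of Vim was 2.78 and no longer passed (edgeR adjusted p = 0.0906).

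Nes, nestin, was read at 6.42, 2.62, 6.69, 5.44 and 9.37 CPM in Vehicle-sham, the lowest value again being library 2. Vehicle-CCI libraries gave 18.4, 17.6, 8.06, 6.07 and 9.37 CPM, 2 of them above every sham library. In TD-CCI all 5 were above sham, at 19.2, 12.8, 13.7, 11.7 and 12.4 CPM. TCF-CCI held 17.3, 8.44, 17.1, 8.93 and 7.31 CPM, with libraries 1 and 3 high, the same pair as for Vim. TNF-CCI held 20.6, 13.1, 9.82, 9.01 and 17 CPM, 4 of 5 above sham, with libraries 1 and 5 highest as for Gfap and Vim.

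Nes was 1.06 ± 0.28 (SE) higher on the log2 scale as a mean over the CCI groups (95% interval 0.48 to 1.65, adjusted p = 0.0337). No single group passed: TNF-CCI and TD-CCI both stood at 1.18, with adjusted p-values of 0.0554 and 0.154, Vehicle-CCI at 0.96 (adjusted p = 0.239) and TCF-CCI at 0.94 (adjusted p = 0.181). Without Vehicle-sham 2 the mean difference was 0.90 (adjusted p = 0.128), with 1.02 in TNF-CCI and TD-CCI and 0.79 in Vehicle-CCI and TCF-CCI, none passing. Without Vehicle-sham 3 or 4 the adjusted p was 0.0544 or 0.0571.

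Synm, synemin, a large protein that joins filaments to adhesion sites, had sham levels of 63.8, 39.6, 26.3, 69.8 and 87.8 CPM. Its sham range thus spanned nearly all CCI values. Vehicle-CCI libraries held 77.4, 46.6, 30.6, 69.0 and 73.6 CPM and TCF-CCI libraries 55.6, 41.5, 83.2, 72.6 and 69.1 CPM, none above the highest sham library. TD-CCI held 61.5, 73.4, 76.2, 93.2 and 79.1 CPM and TNF-CCI 83.4, 51.5, 92.9, 78.8 and 86.2 CPM, with 1 library of each above it.

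The Synm difference on the log2 scale was 0.27 ± 0.22 (SE) in the mean of the CCI groups, with a 95% interval from -0.17 to 0.71. Its largest group value was 0.45 in TNF-CCI (95% interval -0.10 to 1.00, adjusted p = 0.367), followed by 0.42 in TD-CCI (adjusted p = 0.454), 0.16 in TCF-CCI (adjusted p = 0.757) and 0.05 in Vehicle-CCI (adjusted p = 0.953). No upper end of these intervals lay above 1.00. Without Vehicle-sham 2 the mean difference was 0.20 (adjusted p = 0.737), and the groups stood at 0.37 (TNF-CCI), 0.34 (TD-CCI), 0.10 (TCF-CCI) and -0.03 (Vehicle-CCI). The 2 lowest sham values were those of Vehicle-sham 2 and 3, and without both the mean difference was -0.08 (adjusted p = 0.898).

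**Figure D2:**
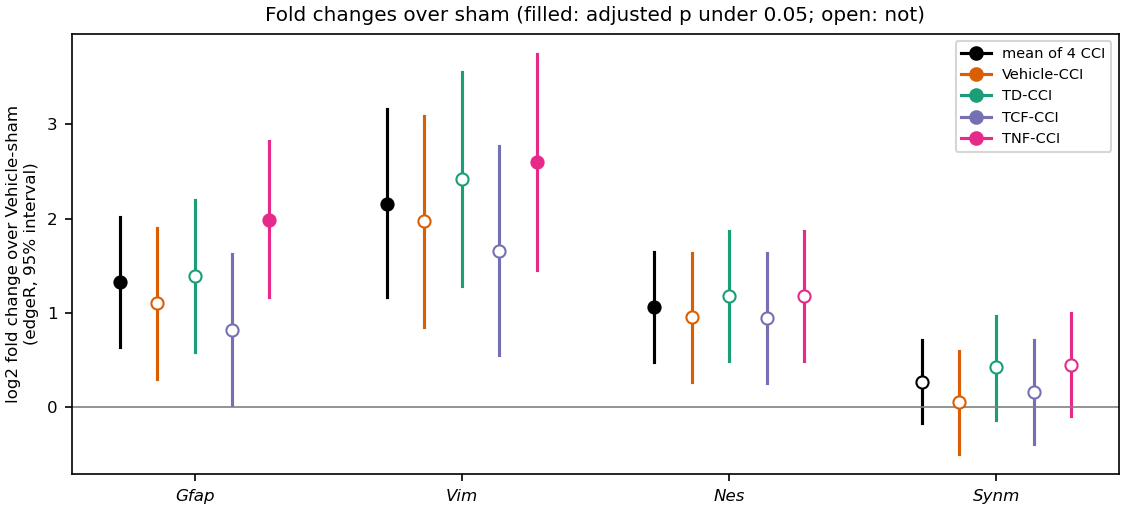
Log2 fold changes over Vehicle-sham from the edgeR fit, with 95% intervals, for the mean of the 4 CCI groups and each CCI group. Filled points passed an adjusted p of 0.05: Gfap, Vim and Nes in the mean of the CCI groups, and Gfap and Vim in TNF-CCI.

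Read by group, 2 of the 4 genes passed in TNF-CCI over sham, where 2.57% of all genes did, and 0 of 4 in the other groups. In TCF-CCI 0.0142% of genes passed (3 genes). In Vehicle-CCI and in TD-CCI edgeR called 0.0% of genes, although 2669 and 3474 genes had an unadjusted p under 0.05, and DESeq2 called 247 and 263. DESeq2 passed Vim in Vehicle-CCI (adjusted p = 0.0454) and Gfap (adjusted p = 0.0292), Vim (adjusted p = 0.00919) and Nes (adjusted p = 0.0362) in TD-CCI. Complete separation from sham was met by Gfap, Vim and Nes in TD-CCI (2.36% of all genes) and by Gfap and Vim in TNF-CCI (2.58%). None of the 4 met it in Vehicle-CCI (0.465%) or TCF-CCI (1.73%). The 4 comparisons share the sham libraries, so they are not separate evidence.

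The authors' deposited table of each CCI group over control gave nearly the same fold changes, with adjusted p-values that were smaller for Gfap and Vim in each group. In the authors' deposited table for TD-CCI, Gfap had a log2 fold change of 1.40 (adjusted p = 1.37e-05), Vim 2.40 (2.32e-15) and Nes 1.18 (0.00276). The authors' deposited table for TNF-CCI gave 2.00 for Gfap (6.17e-05), 2.59 for Vim (1.11e-08) and 1.19 for Nes (0.016). For Vehicle-CCI the authors' deposited table held Vim under 0.05 (1.96, adjusted p = 0.00942) and not Gfap (1.11, 0.131) or Nes (0.97, 0.326). For TCF-CCI none of the 4 was under 0.05 in the authors' deposited table, where Vim had 1.65 (0.0737), Nes 0.96 (0.118) and Gfap 0.83 (0.181). Synm was not under 0.05 in any of the authors' deposited tables, with fold changes of 0.06 to 0.45. The share of genes under 0.05 in the authors' deposited tables was 0.326% for Vehicle-CCI, 2.34% for TD-CCI, 2.24% for TCF-CCI and 3.53% for TNF-CCI.

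How far the call for the mean of the CCI groups rested on single libraries was read by leaving out each of the 25 in turn. Gfap kept an adjusted p under 0.05 in 22 of 25 such fits, Vim in 24 and Nes in 22. The lost calls came with a sham library left out, and the estimates themselves moved little, from 1.24 to 1.58 for Gfap, 2.03 to 2.39 for Vim and 0.91 to 1.27 for Nes. In TNF-CCI over sham, Gfap and Vim lost the call without Vehicle-sham 4, TNF-CCI 1 or TNF-CCI 5, with adjusted p-values of up to 0.0706 and 0.0667. Nes gained a call there in 6 of the 25 fits.

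**Figure D3:**
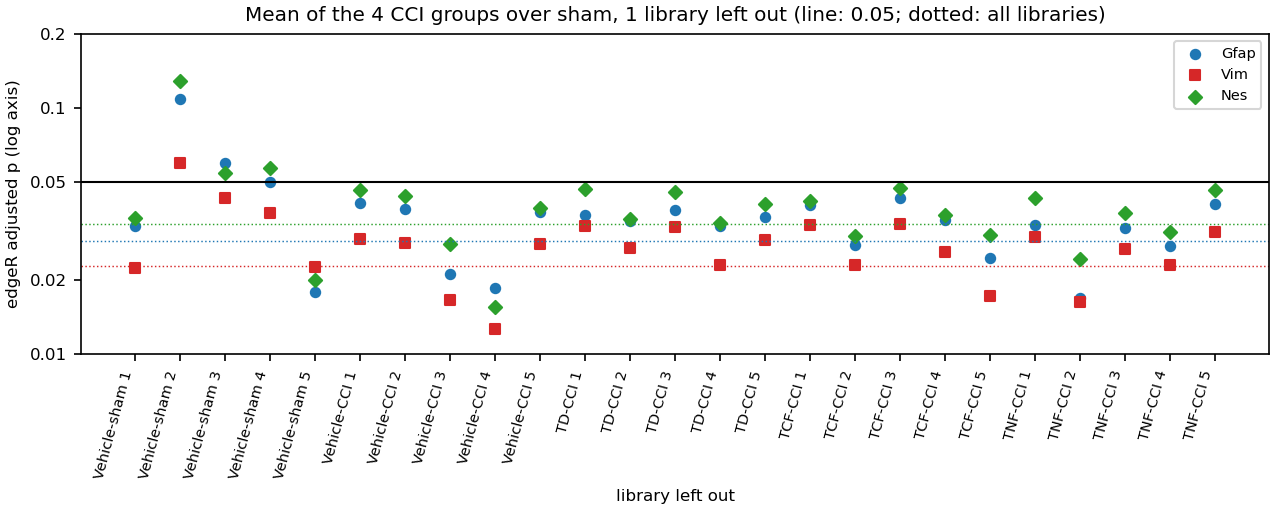
Adjusted p-values of Gfap, Vim and Nes for the mean of the 4 CCI groups over Vehicle-sham, on a log axis, with 1 library left out at a time. The highest values, 0.109 for Gfap, 0.06 for Vim and 0.128 for Nes, came without Vehicle-sham 2; the solid line is 0.05 and dotted lines give the values with all libraries.

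Whether a thymus preparation changed the filament genes beside vehicle was asked among the injured groups alone. None of the 4 genes passed in TD-CCI, TCF-CCI or TNF-CCI over Vehicle-CCI, or between any 2 preparations. In all 6 comparisons edgeR called 0.0% of genes, while between 304 (TCF-CCI over Vehicle-CCI) and 1079 (TNF-CCI over TCF-CCI) genes had an unadjusted p under 0.05. DESeq2 called between 0 and 7 genes and limma between 0 and 12.

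Gfap gave the largest of these differences. It was 0.89 ± 0.39 (SE) higher on the log2 scale in TNF-CCI than in Vehicle-CCI (95% interval 0.09 to 1.69, edgeR adjusted p = 1.0). Over TCF-CCI, the group with the lowest mean Gfap after impact, TNF-CCI was 1.18 ± 0.39 higher (95% interval 0.37 to 1.98, edgeR adjusted p = 0.937). The 2 differences ranked 443rd and 125th by p among the 21064 genes of their comparisons. Without TNF-CCI 1, the library with most Gfap, these differences were 0.53 and 0.82. Vim in TNF-CCI over Vehicle-CCI was at 0.63 (95% interval -0.44 to 1.71) and over TCF-CCI at 0.94 (-0.14 to 2.03). Nes differed little between injured groups, from -0.01 in TCF-CCI over Vehicle-CCI (-0.69 to 0.66) to 0.24 in TD-CCI over TCF-CCI (-0.44 to 0.91). For Synm the differences ran from 0.03 to 0.40. All intervals of Vim, Nes and Synm in these 6 comparisons held 0, and some of Vim reached past a 2-fold change, so equal levels were not shown either.

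Injured groups differed in evenness. In TD-CCI the SD of log2 CPM over 5 libraries was 0.34 for Gfap, 0.43 for Vim and 0.28 for Nes. In TCF-CCI it was 0.76, 1.49 and 0.60, and the highest Vim library there held 8.31 times the lowest. The spread of Vehicle-CCI (0.73, 1.01 and 0.71) and TNF-CCI (0.85, 0.86 and 0.51) lay between for Vim. These spreads are given as a description, without a test.

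Whether members changed by different amounts was tested on the log2 ratio of 2 members within a library, which needs no scaling factor, with an exact two-sided permutation test adjusted over 30 ratios. The Synm to Gfap ratio was 0.91 lower in the CCI libraries than in sham (exact permutation p = 0.006, adjusted p = 0.0476), below every sham library in 16 of 20. The Synm to Vim ratio was 1.59 lower (exact permutation p = 0.00262, adjusted p = 0.0476), below every sham library in 15 of 20. By group the exact permutation test passed for Synm to Gfap in TD-CCI (-0.90) and TNF-CCI (-1.31), and for Synm to Vim in TD-CCI (-1.90). Each of these 3 had an exact p = 0.00794, the smallest that 5 against 5 libraries allow, and an adjusted p of 0.0476. In the exact permutation test over all CCI libraries, the Synm to Nes ratio was 0.75 lower without passing (adjusted p = 0.0897).

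Among the 3 genes that rose, no ratio passed with all libraries. Vim to Gfap was 0.68 higher over all CCI libraries (exact permutation test, adjusted p = 0.152), Nes to Vim 0.84 lower (adjusted p = 0.13) and Nes to Gfap 0.16 lower (adjusted p = 0.616). Without Vehicle-sham 2, the sham library with the highest Vim and the lowest Gfap and Nes, 2 of these passed the exact permutation test: Vim to Gfap was 0.95 higher (adjusted p = 0.0476) and Nes to Vim differed by -1.28 (adjusted p = 0.034). By group, that exact permutation test then also passed for Vim to Gfap in Vehicle-CCI (0.97 higher, adjusted p = 0.034) and for Nes to Vim in TD-CCI and TNF-CCI (-1.59 and -1.68, adjusted p = 0.034 each). The Synm to Gfap and Synm to Vim calls held without that library. They lay close to the threshold all the same: leaving out 1 library at a time, Synm to Gfap and Synm to Vim each missed it in 11 of 25 cases, with adjusted p-values of up to 0.143 and 0.107 in the exact permutation test.

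Over the 20 CCI libraries as a whole, Gfap, Vim and Nes varied together, though not inside every group. Log2 CPM of Vim and Nes had Pearson r = 0.82 and Spearman rho = 0.80, with permutation p-values adjusted over the 6 pairs of 6e-05 and 0.0003. For Gfap and Vim they were r = 0.78 and rho = 0.68 (permutation, adjusted p = 0.00018 and 0.0045), and for Gfap and Nes r = 0.69 and rho = 0.61 (permutation, adjusted p = 0.00098 and 0.0077). With each group's mean removed, r was 0.84, 0.72 and 0.69 for these 3 pairs and rho 0.83, 0.74 and 0.72, all with adjusted permutation p-values of 0.012 or less. Without the 2 libraries farthest from the median of the first gene, r was 0.82, 0.73 and 0.58. TD-CCI ran the other way for Gfap: its libraries 2 and 4, with the most Gfap (3262 and 3550 CPM), had the least Vim (151 and 152 CPM), and its library 1, with the least Gfap (1992 CPM), had the most Nes (19.2 CPM). A group's 5 libraries are too few for a correlation of their own.

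For Synm the r over the same libraries was 0.57 with Gfap (rho = 0.65, permutation, adjusted p = 0.015 and 0.0051), 0.49 with Vim (rho = 0.58, adjusted p = 0.031 and 0.01) and 0.19 with Nes (rho = 0.21, adjusted p = 0.43 and 0.36). Within groups none of the Synm relations passed: r was 0.49, 0.40 and 0.06 and rho 0.42, 0.31 and -0.03, with adjusted permutation p-values from 0.095 to 0.92. Without the 2 farthest libraries r was 0.70, 0.45 and 0.25. With Gfap, Synm thus had a higher rho than Nes had, and a higher r without the farthest libraries. Whether the Synm relations differ from those among the other genes was not tested.

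**Figure D4:**
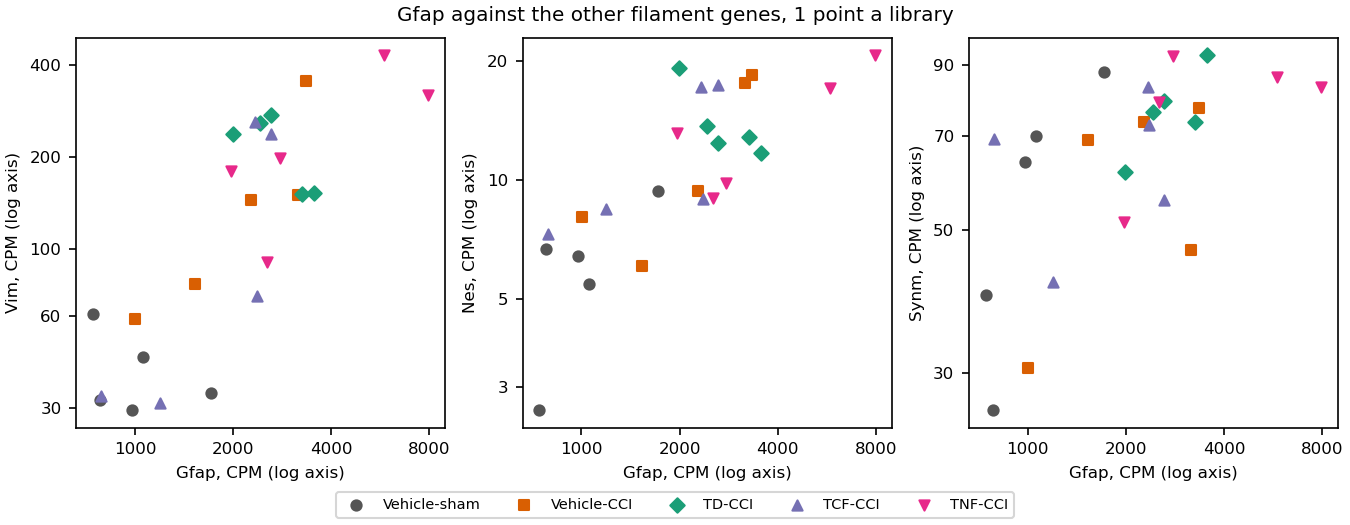
Gfap against Vim, Nes and Synm in the 25 libraries, in CPM on log axes, with 1 point a library and colours and shapes for groups. Over the 20 CCI libraries r was 0.78 for Vim, 0.69 for Nes and 0.57 for Synm; TCF-CCI 2 and 5 sit among the sham libraries for Gfap and Vim.

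Genes whose log2 CPM most resembled each member over the 25 libraries were ranked by Pearson r among 16906 genes with a mean of at least 1 CPM. The ranking is a description, since all points share the same groups and libraries. Nearest to Gfap were Serping1 (r = 0.95), the C1 inhibitor of complement, Tgfb1 (0.94), the cytokine TGF-beta 1, Pdlim4 (0.94), Tnfrsf1a (0.93), a receptor for the cytokine tumour necrosis factor, and Itgb2 (0.92), a leukocyte integrin. Nearest to Vim were Stom, Draxin and A2m (0.94 each), with Cd44, a hyaluronan receptor, and Igsf10 (0.93 each). Nes was nearest to Csf1 (0.96), the growth factor of microglia and macrophages, then Il10ra, Myo1f and Slco2b1 (0.95 each) and Pag1 (0.94). Synm was nearest to Ntrk2 (0.90), the BDNF receptor, followed by Dpysl3, Ap3m2, Sirpa and Tyw1 (0.89 each).

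Other members stood lower in these rankings. Vim was the 124th gene for Gfap (r = 0.82), Nes the 225th (0.79) and Synm the 1052nd (0.62). For Nes, Gfap ranked 551st and Vim 697th, and Synm 5396th (0.38). The 100 genes nearest to Vim held 7 of 13 markers of microglia and macrophages, those nearest to Gfap and to Nes 2 each, and those nearest to Synm 0. The 100 nearest genes held 0 of the 14 astrocyte identity markers for each of the 4 members. As 100 is a small share of 16906 genes, 0 of 14 says little about likeness to astrocyte markers. Outside microglia and macrophages, the only other marker list with a gene there was the thalamic one, with 1 for Nes.

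No astrocyte identity marker passed in the CCI mean over sham, where 5.92% of all genes were called, and 0 calls in 14 is near that share. These 14 genes, among them Aqp4 (the water channel of astrocyte endfeet), Slc1a2 and Slc1a3 (glutamate transporters), Glul (glutamine synthetase) and Aldh1l1, had a median log2 fold change of 0.02 for the CCI mean over sham, against 0.01 over all genes. Of the 14, 7 lay above 0, the highest being Aldh1l1 at 0.51 (adjusted p = 0.191). Without Vehicle-sham 2, whose summed level was the highest of the 25 libraries, the median was 0.14 and again none passed, where 14 genes of all tested did. The groups differed in direction: over sham, 12 of the 14 markers lay above 0 in TNF-CCI (median 0.15) and 10 in TD-CCI (0.15). In Vehicle-CCI and in TCF-CCI 3 did (medians -0.07 and -0.10), and none passed in any group. Over the 25 libraries the list's median r was 0.24 with Gfap, 0.23 with Vim, -0.07 with Nes and 0.52 with Synm, against 0.06, -0.01, 0.09 and 0.10 over all genes. Aqp4 had 1060 CPM in sham and 1190 CPM in CCI libraries. The summed level of the list ran from 6160 to 11700 CPM in sham and from 5030 to 11100 CPM in CCI libraries.

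Markers of microglia and macrophages were higher after impact, as Gfap, Vim and Nes were. Of 13 such genes 8 rose in the mean of the CCI groups, where 5.92% of all genes were called, with a median log2 fold change of 0.96 over the list. Cd68, a lysosomal marker of phagocytes, rose by 2.28 (adjusted p = 0.0222) and Csf1r by 1.40 (adjusted p = 0.0222). Without Vehicle-sham 2 none of the 13 passed in the CCI mean, where 14 genes of all tested did, with a median of 1.05. In TNF-CCI over sham 8 of the 13 passed, where 2.57% of all genes did. Without Vehicle-sham 2, 7 of the 13 passed in that comparison, where 287 genes of all tested did. The summed level of the 13 markers was 220 to 318 CPM in sham, 313 to 862 in Vehicle-CCI, 410 to 581 in TD-CCI, 246 to 580 in TCF-CCI and 430 to 794 in TNF-CCI. Of all libraries it was highest in Vehicle-CCI 1 and TNF-CCI 1, where Vim was at 355 and 319 CPM. Of the injured libraries it was lowest in TCF-CCI 5 and 2 (246 and 283 CPM), where Vim and Gfap lay within the sham range. No marker of the list was at 0 in any library, and its part in the levels of Vim, Gfap and Nes was not tested.

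Lists for other cells known to make vimentin or nestin held fewer calls, in a comparison where 5.92% of all genes were called. None of 11 endothelial markers passed (median 0.40, 10 above 0), with summed levels of 117 to 212 CPM in sham and 138 to 248 CPM in CCI libraries. None of 10 mural cell markers passed (median 0.23), with 88.3 to 139 CPM in sham and 86.1 to 166 CPM after impact. Of 7 fibroblast markers 2 rose, Col1a1 (0.96) and Fmod (1.26), with a list median of 0.85 (1.42 in TD-CCI alone, where none passed) and sums of 66.2 to 219 CPM in sham and 61.8 to 301 CPM in CCI libraries. Of 6 ependymal markers 1 rose, Dnah12 (1.53), with a median of 0.10 and sums of 78.4 to 210 CPM in sham and 79.2 to 288 CPM after impact. Among 12 genes of neural progenitors and cell division 1 rose, Cdk6 (0.92), and 1 call in 12 is near the share of all genes called. That list had a median of 0.15 and sums of 385 to 838 CPM in sham and 396 to 1490 CPM after impact. Without Vehicle-sham 2 no marker of these 5 lists passed in the CCI mean, where 14 genes of all tested did. The medians were then 0.30 for endothelium, 0.21 for mural cells, 0.97 for fibroblasts, 0.77 for ependyma and 0.25 for progenitors. In TNF-CCI over sham without that library, 1 fibroblast and 1 ependymal marker passed and none of the other 3 lists, where 287 genes of all tested did. The ependymal median in the CCI mean thus moved from 0.10 to 0.77 without Vehicle-sham 2, and its change without other libraries was not examined. No marker of these 5 lists was at 0 in any library, and their part in the filament results was not tested.

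Neuronal markers moved the other way: 2 of 8 fell, Neurod6 (-1.18) and Camk2a (-0.77), and all 8 lay below 0 (median -0.40). Of all genes tested, 5.92% were called in this comparison, the CCI mean over sham, 472 as higher and 776 as lower. Of 7 markers of hippocampal fields 3 fell (median -0.58). Of 4 thalamic markers, 1 rose, Prkcd, and none passed of 5 cortical, 9 myelin, 5 oligodendrocyte precursor or 5 choroid plexus markers. Choroid plexus markers summed to 3820 CPM in Vehicle-CCI 3 and to no more than 521 CPM elsewhere, and that library had the lowest Gfap and Vim of its group. Without Vehicle-sham 2 no marker of these neuronal, regional and other lists passed in the CCI mean, where 14 genes of all tested did. In TNF-CCI over sham without that library, 1 of the 8 neuronal markers passed and none of the other lists, where 287 genes of all tested did. What these markers contribute to the filament values was not tested.

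GFAP transcription in reactive astrocytes is known to run through the gp130 receptor, to which the cytokines IL-6, LIF, CNTF and oncostatin M signal, and the factor STAT3. Of 16 tested genes of this pathway 3 rose in the CCI mean over sham, beside 5.92% of all genes called in either direction, and the list's median was 0.28 against 0.01 over all genes. Socs3, the feedback inhibitor that STAT3 induces, rose by 1.93 ± 0.50 on the log2 scale (SE, adjusted p = 0.0311), from 1.25 to 5.03 CPM. Osm, oncostatin M, rose by 1.24 ± 0.34 (adjusted p = 0.0376), from 0.589 to 1.43 CPM, and its receptor Osmr by 1.25 ± 0.36 (adjusted p = 0.0416), from 2.05 to 5.00 CPM. Next in order of p came Il6st, gp130 itself, at 0.65 (adjusted p = 0.0624), and Stat3 stood at 0.55 (adjusted p = 0.0871). In TNF-CCI over sham Socs3 (2.46), Osmr (1.65) and Cntf (0.74) passed, where 2.57% of all genes did. Without Vehicle-sham 2, 0 of the 16 passed in either comparison, with medians of 0.23 and 0.42. Few genes of all tested passed in those fits, 14 in the CCI mean and 287 in TNF-CCI over sham. Stat3 and Cntf lie outside the rule for named genes and were chosen after their values were seen.

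Glial transcription factors, Notch and BMP genes, which set astrocyte fate and Gfap expression in development, stayed near the background. In the CCI mean over sham none of 17 passed, where 5.92% of all genes did, and 0 calls in 17 is near that share. Their median there was 0.02 (0.08 without Vehicle-sham 2). Those of smallest p in the CCI mean were Nfib (-0.38), Id3 (0.43), Hes1 (0.30) and Notch1 (0.47), with adjusted p-values from 0.105 to 0.238. In TNF-CCI over sham 12 of the 17 lay above 0 (median 0.13) and 0 passed. Without Vehicle-sham 2, 1 passed in that comparison, where 287 genes of all tested did.

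The 18 other tested intermediate filament genes gave no call in the CCI mean either, where 5.92% of all genes were called. Their median was 0.26, with 13 above 0. Nefl, the light neurofilament subunit of neurons, stood at -0.58 (adjusted p = 0.0529). The nuclear lamins Lmnb1 and Lmna were at 0.31 and 0.26 and the keratin Krt7 at 1.19, none passing. Among 19 tested partners and modifiers of filaments 1 fell, Rock2, a kinase that phosphorylates GFAP and vimentin, by 0.41 (adjusted p = 0.0483), and 1 call in 19 is near the 5.92% of all genes called. Beside it, Trim2 (-0.37), Padi2 (0.58), a citrullinating enzyme that acts on these filaments, and the small heat shock protein Hspb1 (1.28) did not pass. Both lists gave 0 calls in the CCI mean without Vehicle-sham 2, where 14 genes of all tested passed. The medians were then 0.24 for the filament genes and 0.08 for the partners.

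**Figure D5:**
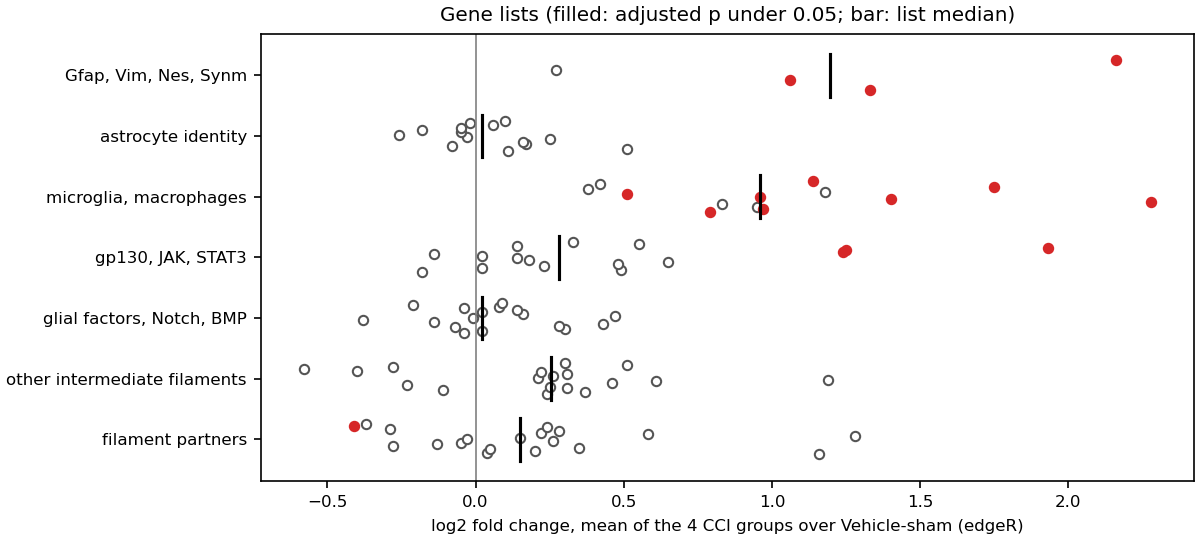
Log2 fold changes of the mean of the 4 CCI groups over Vehicle-sham for the filament genes and 6 gene lists, with 1 point a gene, filled where the adjusted p was under 0.05, and a bar at each list's median. The median was 0.02 for astrocyte identity markers, 0.96 for microglia and macrophage markers and 0.28 for gp130, JAK and STAT3 genes.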

How the data were processed

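The authors' deposited table held raw, whole-number counts for each gene and library, with exon positions. STAR, Salmon, featureCounts, DESeq2 and the build mRatBN7.2 appear in the submitters' processing notes, without roles or versions. Whether counting used strand is not given in the sources used here. Per the file headers, the authors also deposited, for each CCI group, log2 fold changes over control from DESeq2, and the same deposited tables hold p-values, raw and adjusted. Of 34322 genes, 7 with empty cells were dropped.

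Computed here: the robust quasi-likelihood F test of edgeR 4.0.16 (R 4.3.3) on all 25 libraries in 1 fit, after filterByExpr by group and TMM scaling, with Benjamini-Hochberg adjustment over 21064 genes and a threshold of 0.05. At 27.3 to 44.9 M counts (M, 1000000) per library, the spread between libraries exceeded counting error: chi-square over its degrees of freedom was 23.7 to 682 for pairs within a group, a figure that covers counting error only, as no use of molecular identifiers is stated. Ratios used log2(CPM + 0.01), and correlations 100000 permutations. The fit was tested on simulated data with known changes.

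The 4 genes and the gene lists were chosen with earlier results of these data known. Named genes were the 4 members, the 5 genes most like each, and from each pathway list the genes called or, with fewer than 4 called, those of smallest p up to 4; markers that passed were also named, and other marker genes named as examples were chosen after their values were seen. Alternatives were DESeq2 size factors, no filter, a filter at 1 CPM in 5 libraries, a replicate block, the number in the library title or the mitochondrial rRNA percent as a covariate, DESeq2 1.42.0, limma 3.58.1 voom with quality weights, only the groups compared, and leaving out each library or Vehicle-sham 2 and 3.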

Additional observations from a re-analysis of the deposited data

Results flagged for a closer look

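Nes in TD-CCI 1 lay far from the rest of its group, at 19.2 CPM, with the other 4 libraries of TD-CCI between 11.7 and 13.7 CPM. The gap to its nearest neighbour was 0.73 of the group's range, against a limit of 0.71. It was the 1 such value in 20 groups of 5 looked at (4 genes in 5 groups), and chance gives about 1 in 20.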

How the results depend on the processing

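Of 1540 fold changes of the 4 genes under all alternatives, 1459 kept direction and call, 23 lost the call, 15 gained it and 43 changed sign; of 780 ratios, 711 kept both, 56 lost the call, 6 gained it and 7 changed sign, and of 385 counts of genes called 314 stayed within 1.5 times the main count. The causes were not tested. With the mitochondrial rRNA percent as a covariate, the CCI mean over sham was 1.08 for Gfap (adjusted p = 0.102), 2.26 for Vim (0.0527) and 0.92 for Nes (0.0973), with 168 genes called; TNF-CCI over sham was 1.61 for Gfap (0.07) and 2.73 for Vim (0.055), with 103 genes called; TCF-CCI had 0 genes called; and Synm turned to -0.14 in Vehicle-CCI, -0.042 in TCF-CCI and -0.10 in TNF-CCI over TD-CCI. Without Vehicle-sham 2 and 3, 0 genes were called in the CCI mean, TCF-CCI and TNF-CCI over sham: Gfap was 1.10, Vim 2.34, Nes 0.88 and Synm -0.075 in the mean, Gfap 1.76 and Vim 2.78 in TNF-CCI, and Synm -0.30 in Vehicle-CCI and -0.18 in TCF-CCI. DESeq2 called 2414 genes in the mean, 247 in Vehicle-CCI (Vim passing at 1.94), 263 in TD-CCI (Gfap 1.39, Vim 2.39, Nes 1.18), 226 in TCF-CCI, 1455 in TNF-CCI over sham (Nes 1.18), and 1, 2 and 7 in TNF-CCI over Vehicle-CCI, TD-CCI and TCF-CCI. Voom with quality weights called 2 genes in TD-CCI, 388 in TCF-CCI, 946 in TNF-CCI over sham and 12 in TNF-CCI over TCF-CCI, with Synm at -0.078 in Vehicle-CCI and Nes at 0.13 in TCF-CCI over Vehicle-CCI. Fitting only the groups compared called 139 genes in TD-CCI (Gfap 1.41, Vim 2.41), 1 in TCF-CCI and 197 in TNF-CCI. Without the filter, 2070 genes were called in the mean, 1 in TD-CCI and 0 in TCF-CCI. The title number as a covariate called 2515 in the mean, 70 in Vehicle-CCI, 5 in TCF-CCI and 1527 in TNF-CCI (Nes 1.31), with Synm at -0.05 in TNF-CCI over TD-CCI. Nes in TNF-CCI over TD-CCI turned to 0.002 with DESeq2 or its size factors, 0.008 without the filter and 0.073 with the title number, and in TCF-CCI over Vehicle-CCI to 0.006 without the filter and 0.004 with the title number.

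Libraries with the same replicate number shared no stated animal, litter or day. Deviations from the group means were correlated over 50 pairs of libraries with the same number. Their r ran from -0.416 to 0.523 (median 0.152, with 31 pairs over 0.1). Pairs with different numbers had a median r of -0.039, so libraries of the same number were more alike by the median. What they share is not stated and was not tested, and the main fit held no term for it. A replicate block called 1863 genes in the CCI mean over sham (1248 without it) and 1190 in TNF-CCI over sham (542 without it). It called 1 gene in Vehicle-CCI and 45 genes in TD-CCI. With the block, Nes passed in TNF-CCI over sham at 1.13 (edgeR adjusted p = 0.0325) and stood at 0.004 in TCF-CCI over Vehicle-CCI. The block changed no other call of the 4 genes.

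Leaving out each library gave 14 to 2117 genes called in the CCI mean over sham, 0 to 368 for Vehicle-CCI, 0 to 4 for TD-CCI, 0 to 6 in TCF-CCI and 0 to 1563 in TNF-CCI. In the CCI mean Gfap ran from 1.24 to 1.58, Vim from 2.03 to 2.39 and Nes from 0.91 to 1.27; in TNF-CCI over sham Gfap from 1.63 to 2.24, Vim from 2.30 to 2.83 and Nes from 0.99 to 1.39. Synm ran from -0.13 to 0.26 in Vehicle-CCI and -0.019 to 0.37 in TCF-CCI. In TCF-CCI over Vehicle-CCI the ranges were -0.75 to 0.24 (Vim), -0.18 to 0.20 (Nes) and -0.05 to 0.26 (Synm), and in TNF-CCI over TD-CCI -0.13 to 0.39, -0.19 to 0.14 and -0.034 to 0.17. Ratios over all CCI libraries ran from -1.07 to -0.83 (Synm to Gfap), -1.86 to -1.35 (Synm to Vim), -1.06 to -0.58 (Synm to Nes), 0.43 to 0.95 (Vim to Gfap) and -1.28 to -0.61 (Nes to Vim). By group, Synm to Gfap ran from -1.06 to -0.82 in TD-CCI and -1.47 to -1.06 in TNF-CCI, Synm to Vim from -2.17 to -1.67 in TD-CCI, Vim to Gfap from 0.45 to 0.97 in Vehicle-CCI, and Nes to Gfap from -0.26 to 0.057 in Vehicle-CCI and -0.39 to 0.003 in TD-CCI. Nes to Vim ran from -1.59 to -0.92 in TD-CCI, -0.62 to 0.067 in TCF-CCI and -1.68 to -1.01 in TNF-CCI.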
